A study of Mus musculus with 12 samples.

Results

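The 50 genes described here are the mouse chemokines and chemokine receptors of the array: 31 ligands (Ccl and Cxcl), 15 signalling receptors (Ccr and Cxcr) and 4 atypical receptors (Ackr), out of 18193 genes measured. A gene was taken when its platform symbol began with one of these 5 stems followed by a number. Each is read by its brightest probe set among those that map to a single gene. The genes were measured in keratinocyte fractions sorted by flow cytometry from mouse skin, on 12 arrays. The BL fraction gave 3 LRC and 3 non-LRC samples, the SL fraction gave 2 LRC and 2 non-LRC samples, and the GL fraction, not split by label, gave 2. From what is known of the study, BL, SL and GL stand for the basal, spinous and granular layers and LRC for label-retaining cell.

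All 5 groups came from mice of a single genotype, carrying K14-CreER with Rosa-tdTomato as well as K5-tTA with pTRE-H2B-GFP. The keratin 5 promoter drives tTA, which switches on a nuclear GFP label. All mice ate doxycycline (1 g/kg in the food) over 2 weeks, which turns the label off so that it is diluted as cells divide. They were injected with tamoxifen (75 mg/kg) a single time and killed 1 week after it, at second telogen, the second resting phase of the hair cycle. The label reports division only in cells in which the keratin 5 promoter had been active, and the sources used here give no sorting gates, age in days or number of animals. Because no source says that the samples of a group were separate animals, the p-values below measure only the spread between these samples, and the small number of arrays limits their precision.

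Chemokines are small secreted proteins that guide moving cells. They bind receptors coupled to inhibitory G proteins, while the atypical receptors bind the same ligands without that signal and take them up. In skin, keratinocytes release chemokines, and the Langerhans cells and T cells that live between keratinocytes carry receptors for them. Cxcl12 is the ligand of Cxcr4 and of the scavenger Ackr3, which removes it.

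Values are deposited array intensities, and differences are in log2 units with the standard error of a limma model over all 12 arrays. A gene counted as called when its Benjamini-Hochberg adjusted p over 18193 genes was at or under 0.05. Background was the 95th percentile of 27 bacterial control probe sets on each array, between 22.4 and 42.6 intensity units. The arrays formed sets by the signal of BioB, a bacterial control: it averaged 495 ± 29.5 (SD, n = 4) on the first array of each BL group and on both SL non-LRC arrays, and 3369.9 ± 305 (SD, n = 8) on the others. In SL this split coincides with LRC and non-LRC, so label and array set cannot be told apart there from the SL arrays alone. The same first BL arrays had 0 of 3 Y-linked genes above background, where the other 10 arrays had 3 of 3. By these genes each BL group mixed sexes, so its samples did not all come from the same animal. Only the BL groups hold arrays of both sets, so a term for the array set is estimated from them. There it cannot be told apart from the Y-linked difference, which the SL arrays do not have. The Gapdh control, read at both ends of its transcript as a sign of RNA quality, had a 3′ excess (log2) of 1.22 on GL 1 and 0.68 to 1.02 on the other 11 arrays. Replicates correlated at r = 0.925 to 0.932 across genes.

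The layer labels were checked on marker lists. Of 12 basal keratinocyte markers 8 fell in SL relative to BL, and of 10 spinous markers 6 rose. Of 10 granular markers 6 rose and 1, Tgm3, fell. In the same comparison 6 of 12 markers of the hair follicle bulge rose and 1, Postn, fell. Of 15 markers of infundibulum and sebaceous gland 5 rose and 0 fell. In GL relative to SL, 3 of 10 granular markers rose and 1 fell. The granular markers summed to 17326 to 30718 in GL, against 10935 to 11578 in SL LRC and 9191 to 15126 in SL non-LRC. GL also carried markers of Langerhans and myeloid cells, with 12 of 16 called higher than in SL. They summed to 47587 to 92124 in GL, against 6374 to 7807 in SL LRC and 13848 to 21914 in SL non-LRC. Epcam alone made up 4876 and 5606 of the SL LRC sums and 11684 and 9667 of the SL non-LRC sums. In GL it was 14312 and 12318. Markers of epidermal T cells summed to 39339 on GL 1 and 12734 on GL 2, against 3787 to 3802 in SL LRC and 3557 to 5909 in SL non-LRC, with 8 of 12 called higher. Melanocyte markers summed to 2175 to 3224 in GL, against 677 to 707 in SL LRC and 1347 to 1382 in SL non-LRC. Dct and Tyrp1, 2 of 9, were called higher in GL. Markers of the hair follicle bulge summed to 39000 to 39417 in GL, against 8214 to 8786 in SL LRC and 22489 to 26711 in SL non-LRC. Of these 12 markers 6 were called higher in GL and 0 lower. The part of these cells in any chemokine result was not tested, and in sorted bulk samples fewer cells of a type and less RNA per cell cannot be told apart.

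Promoter sequences are shown for 4 genes that the label and layer results below turn on: the ligand Cxcl12, its receptor Cxcr4, its scavenger Ackr3, and Cxcl1, an inducible neutrophil attractant. Each runs 5′ to 3′ on the gene's own strand over the 250 bases that end at the annotated start, from RefSeq on GRCm38.p6. The windows are chr6:117168285-117168534 (plus strand), chr1:128592300-128592549 (minus), chr1:90203730-90203979 (plus) and chr5:90890995-90891244 (plus). Capitals mark matches to 3 motifs searched on both strands. They are the GC box CCGCCC, the TATA box TATAAA, and the consensus site of NF-kB, the transcription factor of inflammatory genes.
Cxcl12: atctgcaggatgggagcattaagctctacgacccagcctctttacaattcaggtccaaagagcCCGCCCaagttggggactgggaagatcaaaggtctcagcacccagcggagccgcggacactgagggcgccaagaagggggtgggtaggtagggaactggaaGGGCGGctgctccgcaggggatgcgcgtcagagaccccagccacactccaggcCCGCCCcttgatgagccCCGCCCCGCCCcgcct
Cxcr4: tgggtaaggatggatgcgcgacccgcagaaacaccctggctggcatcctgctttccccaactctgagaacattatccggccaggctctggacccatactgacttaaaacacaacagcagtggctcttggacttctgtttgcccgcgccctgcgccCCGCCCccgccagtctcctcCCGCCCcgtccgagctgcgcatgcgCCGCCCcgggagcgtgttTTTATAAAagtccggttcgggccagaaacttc
Ackr3: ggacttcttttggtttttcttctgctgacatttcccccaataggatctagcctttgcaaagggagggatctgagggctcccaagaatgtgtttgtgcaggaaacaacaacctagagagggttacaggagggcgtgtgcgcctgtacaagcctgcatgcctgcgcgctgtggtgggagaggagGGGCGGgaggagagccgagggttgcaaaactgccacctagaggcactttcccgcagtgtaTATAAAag
Cxcl1: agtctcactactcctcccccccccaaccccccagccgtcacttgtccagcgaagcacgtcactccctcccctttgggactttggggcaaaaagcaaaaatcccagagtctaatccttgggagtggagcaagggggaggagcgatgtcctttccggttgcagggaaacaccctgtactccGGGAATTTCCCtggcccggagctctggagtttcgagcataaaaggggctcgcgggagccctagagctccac

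The Cxcl12 window held 5 matches to the GC box, the pair nearest the start lying at 16 and 11 bases before it and overlapping by a base. Cxcr4 held 3 GC boxes and matches to TATAAA on both strands at 32 and 30 bases before the start, which overlap. Ackr3 held 1 GC box and a TATAAA 8 bases before the start, and Cxcl1 held overlapping matches to the NF-kB consensus, 1 on each strand, at 71 and 70 bases before it. Among 32851 promoter windows of this length in the table, 32.7% held the GC box, 12.4% TATAAA and 7.25% the NF-kB consensus. Of the 37 chemokine and receptor genes with a window, 6 held the GC box, 12 held TATAAA and 11 held the NF-kB consensus. These last were Ackr2, Ccl1, Ccl9, Ccl20, Ccr1, Ccr3, Ccr6, Cxcl1, Cxcl2, Cxcl3 and Cxcl10. The matches describe letters and were not tested as binding sites.

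Much of the family lay near background. By their chosen probe sets, only 15 of 50 members (30%) exceeded it on all 12 arrays, against 57.01% of all genes. A further 12 did so on 6 to 11 arrays and 16 on 1 to 5 arrays, and 7 never did. Those 7 were Ccl12, Ccr1, Ccr1l1, Ccr2, Cxcl3, Cxcl5 and Cxcr5, although another probe set of Ccr2 exceeded it on 1 array. A single array had between 21 and 32 members above background. By the limma F test over the 5 groups 13 of 50 members differed, or 26%, beside 16.9% of all genes: Cxcl12, Cxcr4, Cxcr6, Ccr4, Ackr2, Ackr3, Ackr4, Ccl2, Ccl7, Ccl22, Cxcl1, Cxcl14 and Cxcl16.

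**Figure D1:**
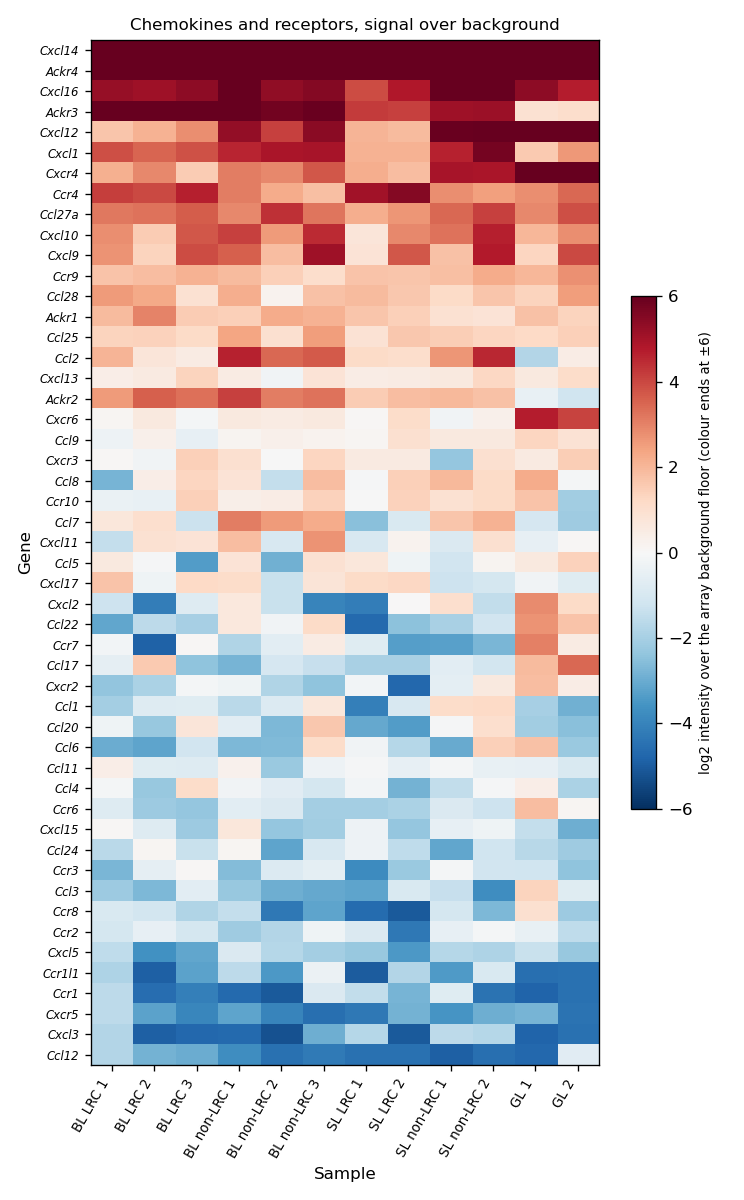
Log2 intensity of each of the 50 chemokine and receptor genes over the background of the same array, with red above and blue below it and colours ending at 6 log2 units. Columns are arrays by group and rows run from genes above background on most arrays to those on fewest; Cxcl12 and Cxcr4 stand high in GL and SL non-LRC, Ccr4 in LRC arrays, and Ackr3 in BL.

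Cxcl12, which holds and attracts Cxcr4-bearing cells, was far lower in label-retaining than in non-retaining cells of both layers. In the basal fraction the intensity was 109.8, 125 and 185 in the 3 BL LRC samples, against 979, 642 and 961 in BL non-LRC. In the spinous fraction it was 176 and 119.97 in SL LRC, against 1782 and 1707 in SL non-LRC. The LRC and non-LRC values do not overlap in either layer. Cxcl12 was 6.19-fold lower in BL LRC (-2.63 ± 0.26, SE, n = 3 and 3, limma adjusted p = 3.54e-05). In SL LRC it was 12-fold lower (-3.59 ± 0.32, n = 2 and 2, adjusted p = 4.42e-05). With a term for the array set, which only the BL arrays estimate, the SL difference was -3.66 (limma adjusted p = 0.000456). On the high-BioB arrays alone the BL difference was -2.37 (adjusted p = 0.00542). Markers of infundibulum and sebaceous gland moved with the label too. They summed to 24707 to 28171 in BL LRC against 59071 to 112276 in BL non-LRC (12 of 15 called lower), and to 55545 to 56599 in SL LRC against 118965 to 136792 in SL non-LRC (10 of 15 called lower). Of 12 bulge markers 3 were called lower in BL LRC, and in SL LRC 5 were called lower and 1 higher. In GL relative to SL 6 of them were called higher. Of 9 melanocyte markers 2, Tyrp1 and Dct, were called lower in SL LRC, as were 5 of 16 Langerhans and myeloid markers. The part of these cells and regions in the label differences was not tested.

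GL had the most Cxcl12 of the 5 groups, at 3503 and 3189 on its 2 arrays. Both lie above every SL value. Against the mean of both SL groups GL was higher by 2.73 ± 0.28 (n = 2 and 4, limma adjusted p = 1.39e-05). Split by label, GL exceeded SL LRC by 4.52 ± 0.32 (adjusted p = 5.49e-07), and its difference from SL non-LRC was 0.94 ± 0.32 (adjusted p = 0.116), which did not pass. Cxcl12 in SL as a whole was 0.57 ± 0.21 relative to BL (adjusted p = 0.158), and -1.25 (adjusted p = 0.0293) on the high-BioB arrays, where SL LRC alone stands for SL. SL non-LRC differed from BL non-LRC by 1.04 ± 0.30, adjusted p = 0.101. The order of group means ran from BL LRC and SL LRC, whose samples overlap, through BL non-LRC and SL non-LRC to GL. The brighter of the other 2 Cxcl12 probe sets gave -2.88 ± 0.34 in BL, -3.46 ± 0.41 in SL and 2.71 ± 0.36 in GL relative to SL, and passed in all 3 comparisons when adjusted over all probe sets. The dimmer had the same signs and passed in none. It was above background on neither SL LRC array, so its size is not given (adjusted p = 0.27, 0.249 and 0.0535).

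Cxcr4, the signalling receptor for Cxcl12, followed a related order. It was 150.3, 217 and 76.3 in BL LRC against 213, 273 and 297 in BL non-LRC, groups whose values overlap (-0.93 ± 0.36, adjusted p = 0.309 in limma). It was 193 and 118 in SL LRC against 893 and 777 in SL non-LRC, where they do not. The SL LRC level was 5.53-fold lower (-2.47 ± 0.44, adjusted p = 0.00386), and -2.56 with the array-set term (adjusted p = 0.0376). This call was lost without SL LRC 2 (-2.11, adjusted p = 0.0514). Relative to the BL groups, Cxcr4 rose in SL non-LRC by 1.69 ± 0.40 over BL non-LRC (adjusted p = 0.0463), while SL LRC stood at 0.15 ± 0.40 relative to BL LRC (adjusted p = 0.941). The interaction test, given with the label counts, did not call a difference between these effects.

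In GL, Cxcr4 reached 2164 and 3449, above all other arrays. It rose by 2.95 ± 0.38 against SL (limma adjusted p = 0.000127), by 4.18 ± 0.44 against SL LRC and by 1.71 ± 0.44 against SL non-LRC (adjusted p = 1.59e-05 and 0.034). Cxcr4 is also carried by leukocytes, whose markers rose in GL as given above. Bulge markers rose there too. T cell markers were 0 of 12 called between SL LRC and SL non-LRC, while 5 of 16 Langerhans and myeloid markers were lower in SL LRC. The part of any of these cells in the Cxcr4 differences was not tested.

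Ackr3, the scavenging receptor for Cxcl12, ran the other way across layers. It was 2686, 2229 and 2072 in BL LRC and 2860.3, 2020.5 and 1390.2 in BL non-LRC. In SL it was 789.8 and 555 in SL LRC and 1003 and 887 in SL non-LRC, and in GL 51.5 and 47.1. The values of the 3 layers do not overlap. Ackr3 fell 2.72-fold in SL relative to BL (-1.45 ± 0.20, n = 4 and 6, limma adjusted p = 0.000271) and a further 16-fold in GL relative to SL (-4.00 ± 0.27, n = 2 and 4, adjusted p = 3.15e-07). Both GL values lay near background, which was 27.7 on GL 1 and 22.4 on GL 2, so the size of the GL step is uncertain. The highest bacterial control on GL 2 read 44.9. The difference between SL and BL was -1.81 ± 0.28 among LRC samples (adjusted p = 0.00158) and -1.09 ± 0.28 among non-LRC samples (adjusted p = 0.0691). Label retention made no called difference to Ackr3 in BL (0.21 ± 0.25, adjusted p = 0.83) or SL (-0.51 ± 0.31, adjusted p = 0.446). Its probe set is of a class marked as possibly cross-hybridising, and no other probe set reads the gene.

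**Figure D2:**
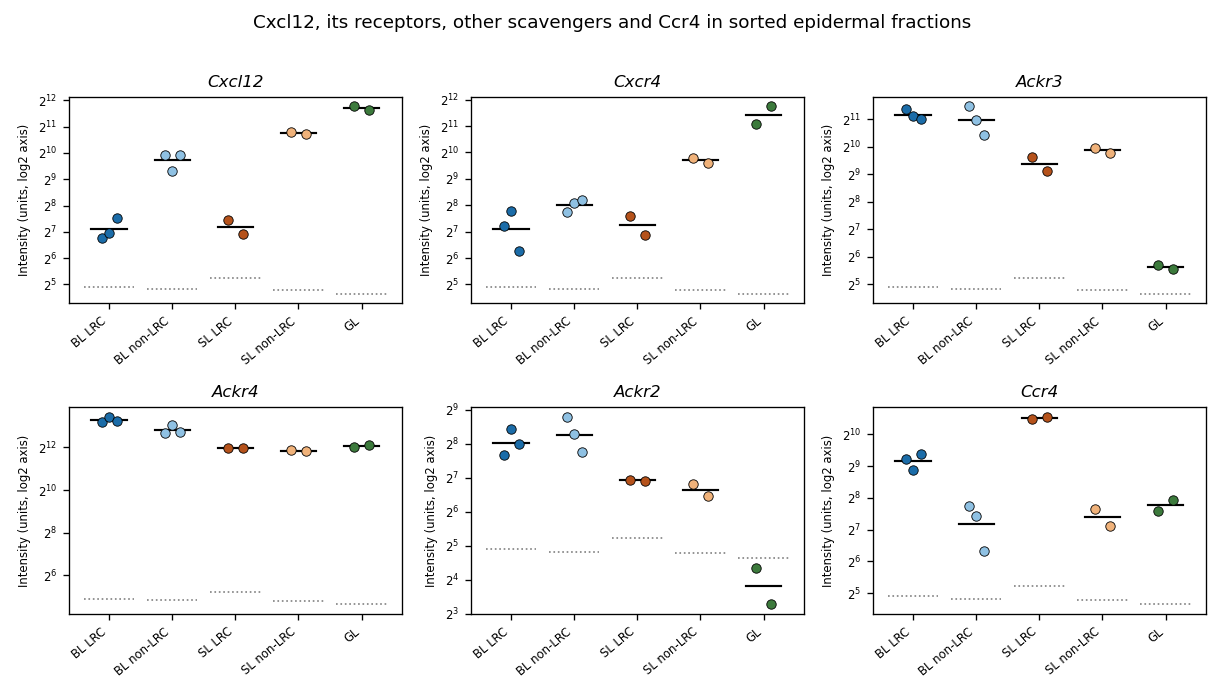
Intensity (log axis) of Cxcl12, Cxcr4, Ackr3, Ackr4, Ackr2 and Ccr4 on each of the 12 arrays by group, with a line at each group's mean and a dotted line at its background. Cxcl12 and Cxcr4 reach 3189 to 3503 and 2164 to 3449 in GL, where Ackr3 lies at 47.1 to 51.5; Ccr4 is highest in SL LRC.

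Ccr4, known as the receptor for Ccl17 and Ccl22 on skin-homing T cells, was the one member called higher in label-retaining cells, and it was so in both layers. It was 604, 466 and 673 in BL LRC, against 213, 173 and 79.5 in BL non-LRC. It was 1420.2 and 1501 in SL LRC, against 202 and 139 in SL non-LRC. Every LRC value exceeds every non-LRC value. Ccr4 was 4.01-fold higher in BL LRC (2.00 ± 0.35, limma adjusted p = 0.00559) and 8.7-fold higher in SL LRC (3.12 ± 0.43, adjusted p = 0.000554). With the array-set term the SL difference was 3.60 (adjusted p = 0.00336), and on the high-BioB arrays the BL difference was 2.25 (adjusted p = 0.0206). Spinous keratinocyte markers moved with the label in the same direction. They summed to 116390 to 141874 in BL LRC against 77702 to 101045 in BL non-LRC (4 of 10 called higher), and to 177111 to 188024 in SL LRC against 102824 to 120739 in SL non-LRC (5 of 10 called higher). Their part in the Ccr4 differences was not tested.

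In GL, Ccr4 was 192 and 246, within or just above the range of the non-LRC arrays of the other layers. It fell by 2.75 log2 units relative to SL LRC (SE 0.43, limma adjusted p = 0.000498), and relative to SL non-LRC the difference was 0.37 ± 0.43 (adjusted p = 0.73). Beside this, the T cell marker Cd3g was 413 and 216 in SL LRC, 415 and 184 in SL non-LRC and 8775 and 3389 in GL. Summed T cell markers were 6759 to 10106 in BL LRC and 5084 to 9187 in BL non-LRC, ranges that overlap. Thy1 made up 4382 to 7030 of the BL LRC sums. The part of T cells in the Ccr4 values was not tested. Ccr4 is read by 1 probe set.

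Of the other atypical receptors, Ackr4 and Ackr2 were called lower in SL than in BL. Ackr4, which takes up Ccl19, Ccl21 and Ccl25, was 9427, 11029 and 9576 in BL LRC and 6623, 8429 and 6661 in BL non-LRC. It was 4034 and 4054 in SL LRC, 3730.4 and 3622 in SL non-LRC and 4165 and 4424 in GL. All SL values lie below all BL values. It fell 2.2-fold in SL relative to BL (-1.14 ± 0.11, limma adjusted p = 7.29e-06). The difference was -1.30 ± 0.15 among LRC and -0.97 ± 0.15 among non-LRC samples (adjusted p = 0.000263 and 0.00232). For GL the probe sets of Ackr4 disagree: the brightest gave 0.15 ± 0.14 relative to SL (adjusted p = 0.618), while another read 223 and 237 in GL against 1003 to 1432 in SL (-2.34 ± 0.20, adjusted p over all probe sets = 2.55e-06). The remaining probe set, of a class marked as possibly cross-hybridising, was near the brightest. It read 3447 and 4228 in GL, against 3386 to 4120 in SL. The direction for Ackr4 in GL is therefore not settled.

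Ackr2, a scavenger of inflammatory CC chemokines, was 203, 348 and 256 in BL LRC and 445, 311 and 215 in BL non-LRC. It was 123 and 119.7 in SL LRC, 113 and 88.1 in SL non-LRC and 20.2 and 9.67 in GL. Neither GL array exceeded background on this probe set and 1 of 2 did on another, so no size is given for GL. Ackr2 fell in GL relative to SL (limma adjusted p = 0.000782), and its other probe sets were called lower as well (adjusted p over all probe sets = 0.0111 and 0.0297). The step between SL and BL was -1.37 ± 0.36 (adjusted p = 0.0319), and 8 of the 10 leave-one-out fits lost it, all but those without BL LRC 1 or without BL non-LRC 3 (highest adjusted p = 0.111). It was also lost with averaged probe sets (adjusted p = 0.0672), on the high-BioB arrays (0.271), and within LRC (0.354) or non-LRC groups alone (0.141). The other Ackr2 probe sets did not pass at this step, with -0.20 ± 0.46 (adjusted p over all probe sets = 0.918) for one and an adjusted p of 0.0931 for the other. Ackr1, a receptor that presents and carries chemokines on endothelium and red cells, was 128, 228 and 74.6 in BL LRC against 68.3, 172 and 97.6 in BL non-LRC, 133 and 87.3 in SL LRC against 55 and 45 in SL non-LRC, and 93.1 and 57.2 in GL, with no called difference. Endothelial markers were 0 of 8 called in GL relative to SL and 0 of 8 in the other comparisons.

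The inducible neutrophil attractant Cxcl1 was lower in label-retaining spinous cells. It was 178 and 140.3 in SL LRC, against 719 and 1395 in SL non-LRC. In BL it was 506, 329 and 366 in BL LRC, against 600.4, 1111 and 707 in BL non-LRC. The groups do not overlap in either layer. The SL difference was -2.66 ± 0.41 (limma adjusted p = 0.00138; -2.67 and 0.0233 with the array-set term), and the BL difference of -0.98 ± 0.34 did not pass (adjusted p = 0.224). In GL, Cxcl1 was 81.5 and 137, and it fell by 1.91 relative to SL (SE 0.36, adjusted p = 0.00265), a call lost without GL 1 (-1.54, adjusted p = 0.0779). Split by label, GL differed from SL non-LRC by -3.25 ± 0.41 (adjusted p = 0.000229) and from SL LRC by -0.58 ± 0.41 (adjusted p = 0.485). The chosen probe set is possibly cross-hybridising, and the other 2 gave -2.78 ± 0.42 and -1.23 ± 0.65 in SL (adjusted p over all probe sets = 0.00131 and 0.382).

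Ccl2, which like Ccl7 attracts monocytes through Ccr2, was called lower in BL LRC and in GL. It was 142, 48.1 and 37.5 in BL LRC, against 624, 400.4 and 289.9 in BL non-LRC. It was 94.2 and 68.8 in SL LRC, against 187 and 582 in SL non-LRC, and 8.12 and 30.3 in GL. LRC and non-LRC values do not overlap in either layer, and both GL values are below all others. Ccl2 fell in BL LRC (-2.71 ± 0.63, limma adjusted p = 0.0397), which 5 of the 6 leave-one-out fits lost, all but the one without BL LRC 1 (highest adjusted p = 0.188), as did the fit on high-BioB arrays alone (-3.00, adjusted p = 0.117). The SL difference of -2.03 ± 0.78 did not pass (adjusted p = 0.174). In GL relative to SL, Ccl2 fell (adjusted p = 0.00414) by an amount that is not settled, since 1 of 2 GL arrays was above background, and this call was lost without GL 1 (adjusted p = 0.118).

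Ccl7 was 54.8, 60.2 and 10.6 in BL LRC, against 216, 219 and 107 in BL non-LRC. It was 7.38 and 17.4 in SL LRC, against 92.4 and 109.9 in SL non-LRC, and 13.6 and 5.05 in GL. It differed among the 5 groups by the limma F test (adjusted p = 0.00475) and had no call between LRC and non-LRC in BL (-2.39 ± 0.78, adjusted p = 0.186) or in SL (adjusted p = 0.0761). SL LRC and GL never exceeded background for Ccl7, and GL was at least 4.05-fold lower than SL non-LRC (adjusted p = 0.0375). Ccr2, the receptor of both, exceeded background on 1 array, in BL LRC, and on 1 of its 4 probe sets.

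Cxcl16, a ligand made as a membrane-bound form that binds Cxcr6, was 636 and 923 in SL LRC, against 2059 and 2226 in SL non-LRC. It was 1267, 987 and 1075 in BL LRC, against 2193, 1492 and 1029 in BL non-LRC, and 1135 and 588 in GL. LRC and non-LRC values overlap in BL and not in SL. The SL difference was -1.48 ± 0.34 (limma adjusted p = 0.0184). It lost its call with the array-set term (-0.92, adjusted p = 0.334) and without the first SL LRC array or without either non-LRC array of that layer (highest adjusted p = 0.195). GL was lower than SL non-LRC by 1.39 log2 units (SE 0.34, adjusted p = 0.0251), and the difference from both SL groups together was -0.65 ± 0.29 (adjusted p = 0.219).

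Cxcl14, a ligand that keratinocytes make without stimulation, was bright on every array. It was 13276, 9749.9 and 8886 in BL LRC and 8415, 7240.3 and 3699 in BL non-LRC. In SL it was 4859 and 5009 in SL LRC and 5691 and 2926 in SL non-LRC, and in GL 8041 and 8486. Although the SL mean was called lower than the BL mean (-0.83 ± 0.21, limma adjusted p = 0.0285), the samples of the layers overlap. Of 10 leave-one-out fits 6 lost it: those without the first BL LRC array, without the first or the second BL non-LRC array, without either SL LRC array, and without the second SL non-LRC array (highest adjusted p = 0.182). The GL difference of 0.88 ± 0.28 relative to SL did not pass (adjusted p = 0.0676). It passed with values raised to the floor, with the compared groups alone, with the array-set term (adjusted p = 0.014), with the replicate block (0.0123) and without SL non-LRC 1 (0.023). A second Cxcl14 probe set gave 0.86 ± 0.23 (adjusted p over all probe sets = 0.0393).

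Cxcl9 and Cxcl10, which interferon induces and Cxcr3 binds, had no called difference. Cxcl10 was 239.8, 85.1 and 346 in BL LRC against 443, 215 and 512 in BL non-LRC, and 71.4 and 244 in SL LRC against 282 and 658 in SL non-LRC. In GL it was 112 and 153. Cxcl9 was 223, 74.9 and 394 in BL LRC against 304, 133 and 781 in BL non-LRC, 74.1 and 426 in SL LRC against 98.6 and 689.9 in SL non-LRC, and 67.8 and 348 in GL. For Cxcl10 the LRC and non-LRC values overlap in BL and not in SL. The SL arrays are too few for that separation alone to show a label difference. For Cxcl9 every pair of groups overlaps. Neither passed the F test (limma adjusted p = 0.161 for Cxcl10 and 0.89 for Cxcl9). Cxcl11, a further ligand of this kind, had 12.9 to 149 and was above background on 7 arrays.

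**Figure D3:**
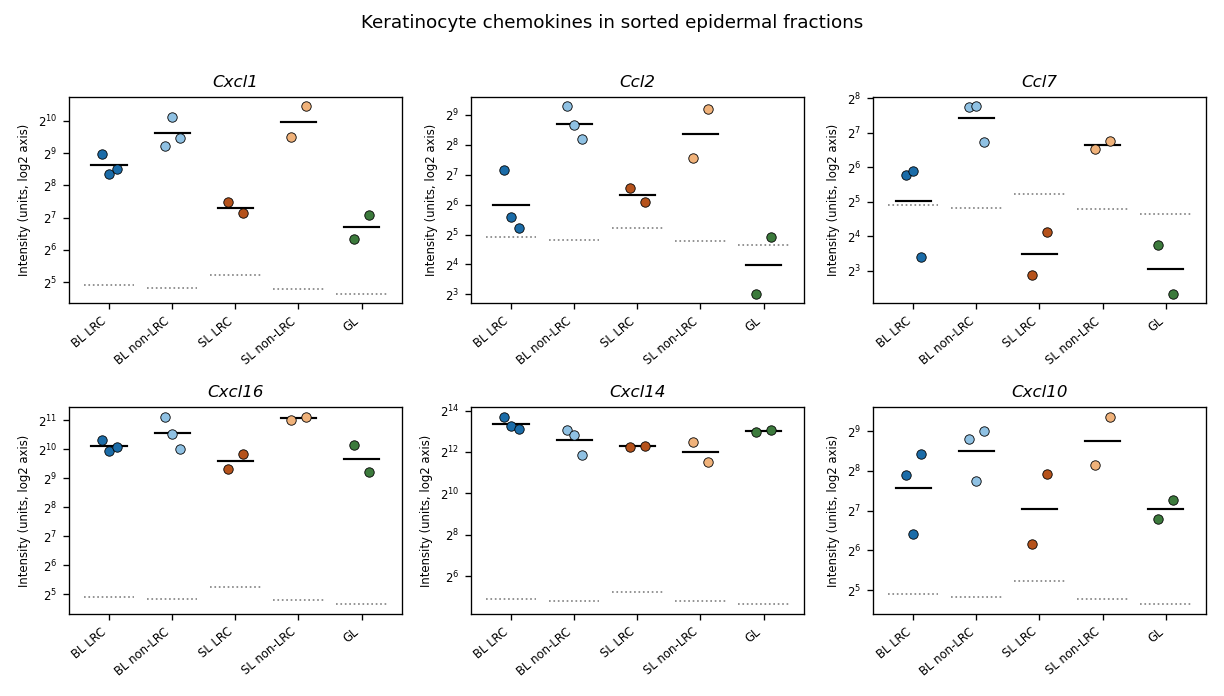
Intensity (log axis) of the ligands Cxcl1, Ccl2, Ccl7, Cxcl16, Cxcl14 and Cxcl10 on each array by group, with the group mean as a line and background as a dotted line. Cxcl1, Ccl2, Ccl7, Cxcl16 and Cxcl10 have lower means in LRC than in non-LRC samples of the same layer. Values of Cxcl16 and Cxcl10 overlap between the BL groups. Cxcl1, Ccl2 and Ccl7 have low or background values in GL.

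Taken by layer, the label comparisons called few members. In BL LRC relative to BL non-LRC 3 of 50 members were called (6%), beside 1.53% of all genes. Ccr4 was the 1 higher (0.308% of all genes were higher), and Ccl2 and Cxcl12 were lower (1.23%). The median difference over the 50 members was -0.14, against 0.05 for all genes. In SL LRC relative to SL non-LRC 5 of 50 were called (10%), beside 4.19% of all genes. Ccr4 was the 1 higher (1.49% of all genes), and Cxcl1, Cxcl12, Cxcl16 and Cxcr4 were the 4 lower (2.7%), with a median of -0.36 against -0.00 for all genes. SL relative to BL called 4 of 50 (8%), beside 5.03% of all genes. They were Ackr2, Ackr3, Ackr4 and Cxcl14, all lower (2.2% of all genes), with 0 higher (2.83%). Some bulge, infundibulum and sebaceous markers rose in this comparison, as given above, and their part in these calls was not tested. GL relative to SL called 9 of 50 (18%), beside 8.3% of all genes. Higher were Ccl17, Ccl22, Cxcl12, Cxcr4 and Cxcr6 (4.39% of all genes), and lower were Ackr2, Ackr3, Ccl2 and Cxcl1 (3.91%). The medians were -0.15 for the members and -0.03 for all genes. Against SL LRC alone GL called 8 members (9.37% of all genes), and against SL non-LRC alone 8 (4.81%). SL LRC relative to BL LRC called Ackr3 and Ackr4, 2 members (2.81% of all genes), and SL non-LRC relative to BL non-LRC called Ackr4 and Cxcr4, also 2 (1.56%). The label, layer and GL comparisons share samples, so their counts are not independent.

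Whether the label difference itself changed between layers was tested as an interaction. It called 0 of 50 members and 0% of all genes in limma. At an unadjusted p under 0.05 there were 5 members and 1291 genes. The members were Cxcl1 (-1.68 ± 0.53), Cxcr4 (-1.53 ± 0.57), Ccr8 (near background), Cxcl16 (-1.04 ± 0.44) and Cxcl12 (-0.95 ± 0.42), and their smallest adjusted p was 0.537. Calls made in SL and not in BL, as for Cxcr4 and Cxcl1, are not shown to differ between the layers.

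**Figure D4:**
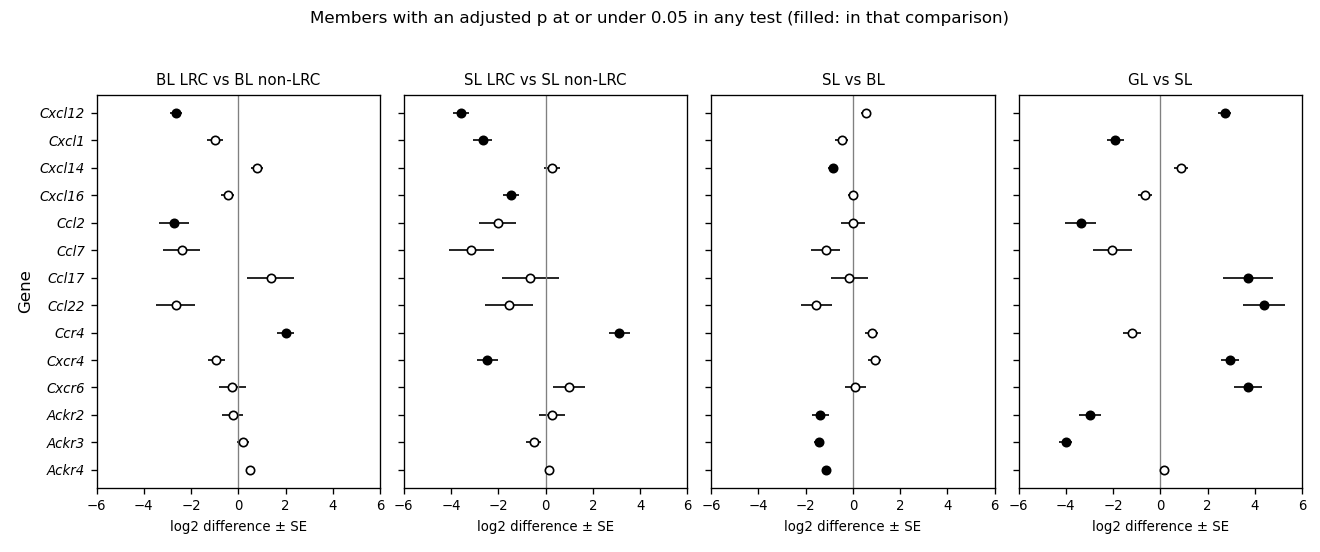
Log2 differences (points) with their standard errors (bars) for chemokine and receptor genes called in at least 1 test, filled where called in that comparison, in BL LRC relative to BL non-LRC, SL LRC relative to SL non-LRC, SL relative to BL and GL relative to SL. Cxcl12 lies at -2.63 and -3.59 in the label comparisons and 2.73 in GL, Ccr4 at 2.00 and 3.12 in the label comparisons, and Ackr3 at -1.45 and -4.00 in the layer comparisons. Fitted differences are drawn also where the text gives a bound or no size.

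Cxcr6, Ccl22 and Ccl17, which lay near background in SL, rose in GL. Cxcr6, the Cxcl16 receptor found on T cells, was 726 and 375 in GL, against 44.4 and 71 in SL LRC and 25.3 and 31.7 in SL non-LRC. Its BL values were 24.2 to 52.4. Both GL values lie more than 5 times above any other. Cxcr6 rose by 3.71 ± 0.59 in GL (limma adjusted p = 0.000782), and its second probe set rose too (adjusted p over all probe sets = 0.0308).

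Ccl22 and Ccl17, the ligands of Ccr4 made by dendritic cells, also rose in GL. Ccl22 was 182 and 72.4 in GL, against 1.7 and 5.93 in SL LRC and 7.56 and 11.6 in SL non-LRC, none of which exceeded background. It was 4.01, 9.85 and 6.6 in BL LRC and 39.9, 32.1 and 50.3 in BL non-LRC. Ccl17 was 103 and 239.9 in GL, against 11 and 8.61 in SL LRC and 19.2 and 12 in SL non-LRC. Relative to SL, Ccl22 was at least 3.59-fold higher in GL (limma adjusted p = 0.00426) and Ccl17 at least 4.9-fold higher (adjusted p = 0.0402). The Ccl22 call was lost without GL 1 (adjusted p = 0.106), and the Ccl17 call in each of the 6 fits without 1 GL or SL array (highest adjusted p = 0.274). Ccl17 also read 4.88 to 88.3 in BL LRC, where 1 array was above background.

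Beside these, GL 1 had the highest values of several further receptors and ligands. Ccr7, which steers dendritic cells to lymph nodes, was 224 and 31.9 in GL and at most 31.96 elsewhere (limma adjusted p = 0.0921 relative to SL). Cxcl2, a neutrophil attractant, was 195 and 50 in GL and at most 58.8 elsewhere. Ccr6 was 101 and 24 in GL, Cxcr2 was 100.1 and 30.6, Ccr8 was 53.1 and 4.97, Ccl3 was 70.3 and 13.4 and Ccl6 was 95.1 and 4.82. None of these passed. GL 1 also carried the higher marker sums of both leukocyte lists. Cd207, which defines Langerhans cells, was 995 and 403 in GL, against 10.6 to 33.1 in SL, and Cd3g rose by 4.25 ± 0.40 (adjusted p = 6.44e-06). Fibroblast markers were 0 of 9 called in GL relative to SL. They summed to 4904 to 5963 in GL, against 1553 to 2612 in SL LRC and 2051 to 4186 in SL non-LRC. In BL LRC they summed to 3275 to 6714 and in BL non-LRC to 3728 to 7763. Postn alone, which is also on the bulge list, made up 4242 and 3465 of the GL sums. It was 1814 and 1164 in SL LRC and 2877 and 1215 in SL non-LRC. Of the other fibroblast markers Lum never exceeded background, while Dcn was 616 and 435 in GL, against 3.6 to 423 in SL. The part of any of these cells in the GL values was not tested.

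**Figure D5:**
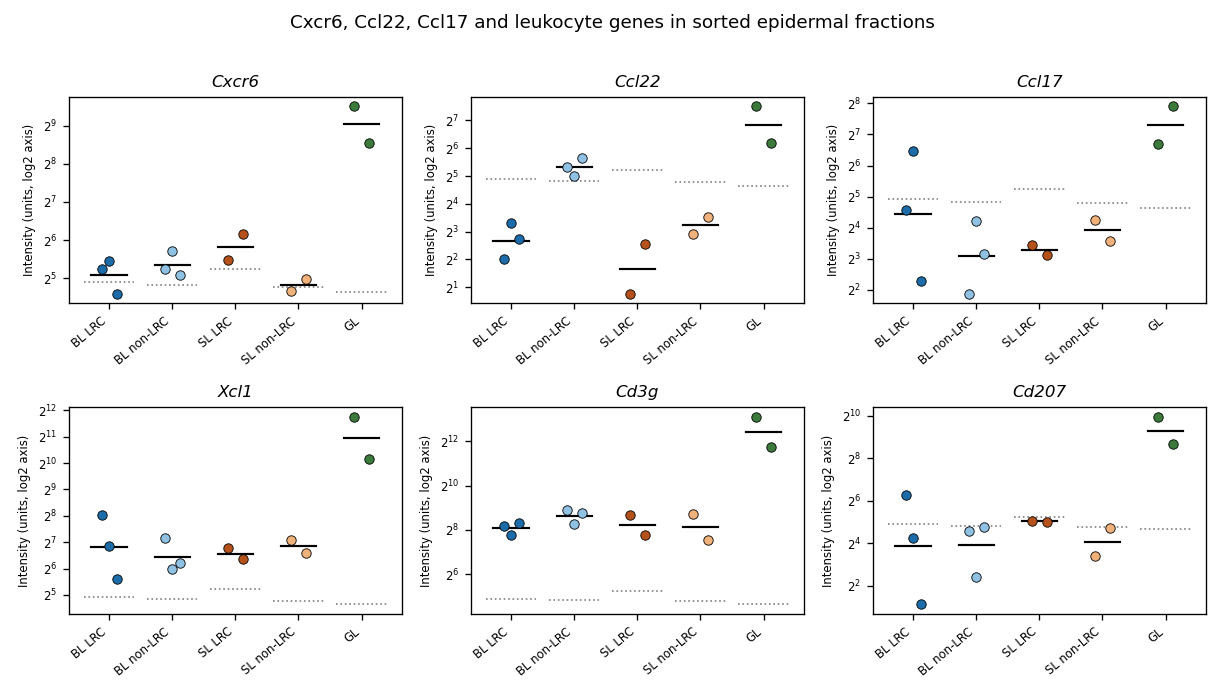
Intensity (log axis) of Cxcr6, Ccl22 and Ccl17 with the T cell ligand Xcl1, the T cell marker Cd3g and the Langerhans cell marker Cd207 on each array by group, with a line at the group mean and a dotted line at background. The highest array of each gene is in GL, where Cxcr6 reads 375 to 726 and Cd3g 3389 to 8775, and GL 1 lies above GL 2 except for Ccl17.

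By their chosen probe sets, a further 4 members exceeded background on every array without a call in any comparison. Ccl27a, a keratinocyte ligand of Ccr10, was 308, 283 and 324 in BL LRC against 192, 777 and 214 in BL non-LRC, 190.0 and 207 in SL LRC against 316 and 444 in SL non-LRC, and 204 and 328 in GL, by a probe set that may cross-hybridise with its copies. A far brighter probe set, shared by the Ccl27a and Ccl27b copies, read 14263 to 19492 in BL and 10230 to 13515 in SL. In GL it read 5670 and 7037, and it is described under the flagged results. The low and uncalled values here therefore do not settle the level of Ccl27a. Ccl28, another Ccr10 ligand, was 204, 142 and 49 in BL LRC against 116, 42.9 and 77.4 in BL non-LRC, 158 and 101 in SL LRC against 64.6 and 80.4 in SL non-LRC, and 69.8 and 128 in GL. LRC and non-LRC values of both genes overlap in BL and not in SL. With so few SL arrays, values often separate by chance, so this separation does not show a label difference. Ccl25 was 87.5, 75.7 and 58.6 in BL LRC against 131, 71 and 131 in BL non-LRC, 76.8 and 101 in SL LRC against 80.9 and 62.6 in SL non-LRC, and 64.4 and 61.1 in GL. Another Ccl25 probe set read 194 and 133 in GL, against 40.1 to 130.6 in SL and 19.7 to 139.7 in BL. Its lower GL value lies within the BL range. Ccr9, the receptor of Ccl25, was 111, 107 and 113 in BL LRC against 96.1, 98.6 and 47.3 in BL non-LRC, 139.8 and 105 in SL LRC against 103 and 118 in SL non-LRC, and 110.0 and 151 in GL.

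Of members above background on 6 to 11 arrays, Ccl9 ranged 18.9 to 68.2 (10 arrays), Cxcl13, which attracts B cells, 31.8 to 67.4 (11), and Cxcr3, the receptor of Cxcl9 to Cxcl11, 5.94 to 70.8 (9). Ccl8 ranged 4.92 to 132 (8), Ccr10 5.22 to 90.7 (8), Ccl5 2.58 to 67.9 (7) and Cxcl17 12.3 to 113 (6). None of these 7 was called. Cxcl17 read 93 and 77.7 in SL LRC, against 12.3 and 12.5 in SL non-LRC, without overlap (limma adjusted p = 0.11). Groups this small often separate by chance, so the lack of overlap does not show a label difference.

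Nearest to background, on 1 to 5 arrays, were Ccl20 (3.23 to 69.2), which binds Ccr6, Ccl1 (2.47 to 63), Ccl4 (4.51 to 56.9), Ccl11 (7.89 to 45.5), Ccl24 (3.41 to 34), Cxcl15 (2.95 to 41.5) and Ccr3 (3.07 to 27.3). The other 9 members of this class, among them Ccl17, Ccl22 and Ccr7, are given with GL above. In SL, Ccl1 exceeded background on both non-LRC arrays and Ccl20 on 1 of them, each on 0 of 2 LRC arrays, with no call (limma adjusted p = 0.133 and 0.178).

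Genes that work with chemokines were read from a list of 68: other chemokines and receptors, enzymes and proteoglycans that handle chemokines, receptor signalling genes, and upstream cytokines and regulators. In BL LRC 1 of 68 was called (1.47%, beside 1.53% of all genes), Rgs16, a brake on G-protein signalling, at least 4.3-fold higher (limma adjusted p = 0.0185). In SL LRC 3 of 68 were called (4.41%, beside 4.19%), all lower: the arrestin Arrb1 (-1.03 ± 0.27), Cd74 (-2.04 ± 0.51) and the RNA sensor Tlr3 (-1.44 ± 0.27). SL relative to BL called 3 (4.41%, beside 5.03%), with Arrb1 (0.66 ± 0.17) and the kinase Ptk2b (0.83 ± 0.23) higher and Rgs3 (-2.25 ± 0.51) lower.

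In GL relative to SL 16 of the 68 were called (23.5%, beside 8.3% of all genes), 11 higher and 5 lower, with a median of 0.23 against -0.03 for all genes. Of 12 other chemokines and receptors, Cd74, a receptor for Mif and a chaperone of class II molecules, rose by 3.83 ± 0.45 (limma adjusted p = 4.76e-05) and Xcl1, a ligand made by T cells, by 4.25 ± 0.60. Of 26 signalling genes, 6 rose, such as Rgs1 (4.05 ± 0.56), Rgs2 (2.69 ± 0.43) and Rgs3 (2.97 ± 0.68), and the inhibitory G protein subunit Gnai1 fell (-1.68 ± 0.17, adjusted p = 1.37e-05). Of 8 handling genes Mmp9 and Sdc1 rose and Mmp2, Ext1 and Dpp4, which trims Cxcl12, fell (Dpp4 -1.25 ± 0.37, adjusted p = 0.0464). Of 22 upstream genes Tnf rose and Ifngr1 fell (-1.01 ± 0.19). Cd74 is also in the Langerhans and myeloid list and Xcl1 in the T cell list, whose sums were higher in GL as given above. Without GL 1 the count of called list genes was 6.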

How the data were processed

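Per the labels' protocols, RNA came from the RNeasy micro kit; 5 ng of it was amplified with NuGEN's Ovation Pico WTA and labelled by their Encore Biotin kit. The deposited values are linear intensity values per probe set. The authors' scaling, recomputed here, gives the arrays 2% trimmed means of 500.002 to 500.003. The summarisation software is not given in the sources used here.

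Of 45101 probe sets, 34945 carry a single gene name, 932 several and 9160 none, and 64 are controls. The brightest single-gene probe set was kept for each of 18193 genes. The members have 78 such probe sets, and 18 members have several. All 50 symbols matched RefSeq. Log2 was taken with nothing added. One model of 5 group means was fitted over 12 arrays with limma 3.58.1 in R 4.3.3, using a mean-variance trend, and was tested on simulated data. Layers were compared as averages over their LRC and non-LRC means. A fold is a lower bound ("at least") where a side was never above background on any probe set of the gene, and no size is given where that side was above it on some arrays and its mean was not. Members called in a comparison or above background on all arrays are given by sample, others by range. Members, lists, motifs and rules were chosen with earlier results of these data known. The NF-kB pattern was widened to the full consensus after a narrower form had been searched. Alternatives covered scaling, floors, probe set choice, array set, replicate block and single arrays, and the fits within LRC or non-LRC groups were added after seeing the data. Figures used Python 3.11.15 and matplotlib 3.10.9.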

Additional observations from a re-analysis of the deposited data

Results flagged for a closer look

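A further 4 probe sets for chemokines match several near-identical gene copies and enter no gene value above. They are listed as signal outside the comparisons where they exceeded background on several arrays, which 3 of them did. The probe set for the Ccl21 copies ranged from 4.81 to 179.8 and was above background on the 6 BL arrays alone. It was called lower in SL than in BL (limma adjusted p over all probe sets = 0.00154), with no size given, since no SL array exceeded background. Ccl21 steers dendritic cells that carry Ccr7. The brighter of 2 probe sets for the Ccl27a and Ccl27b copies ranged from 5669.8 to 19492 and was lower in GL than in SL (-0.93 ± 0.14, adjusted p = 0.000746). The dimmer one ranged from 242.98 to 1053 and gave 0.08 ± 0.39 for GL relative to SL (adjusted p = 0.955). Which copy each probe set reads cannot be told apart.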

How the results depend on the processing

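Among members, Cxcl12 in SL relative to BL turned on high-BioB arrays alone, where SL LRC is the whole SL side (-1.25, adjusted p = 0.0293 in limma, against 0.57 over all arrays), and Ackr4 in GL relative to SL turned to -0.72 (adjusted p = 0.00474) when all its probe sets were averaged. Without the mean-variance trend the calls numbered 1 in BL, 3 in SL and 2 in SL relative to BL, in place of 3, 5 and 4, and Ccr4 in BL (adjusted p = 0.0807) and Cxcr4 in SL (0.0627) were lost. SL relative to BL called 2 members within LRC groups and 2 within non-LRC groups, and 2 to 4 without 1 array; GL relative to SL called 5 to 9 without 1 array, the lowest without GL 1. For the list of 68, the BL count of 1 became 0 with averaged probe sets, 0 on high-BioB arrays and 0 to 1 without 1 array. Its SL count of 3 became 1 with averaged probe sets, 0 without the trend, 0 with the array-set term, 7 with the replicate block and 1 to 3 without 1 array. Its SL relative to BL count of 3 became 5 with values raised to the floor, 0 without the trend, 0 on high-BioB arrays, 0 within LRC groups, 1 within non-LRC groups and 0 to 4 without 1 array. Its GL count of 16 became 8 without the trend, 10 against SL non-LRC alone and 6 to 17 without 1 array. Where fewer arrays enter a fit, its errors grow by construction; the causes of the other changes were not tested.

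No source used here says what a replicate number shares. Residuals of same-numbered samples correlated at 0.132, 0.0732 and 0.0799 across the BL groups, each BL array being closest to its own number, and at -0.0269 in SL; not every pair passed 0.1, so the numbers were not used as pairs, and a shared origin of the BL pairs was not tested. The replicate block changed 2 member calls, both gained by Cxcl14, in BL (adjusted p = 0.0484) and in GL relative to SL (0.0123). Centring arrays moved the all-gene median to 0.12 in SL and -0.19 in GL relative to SL, and left 5 members higher and 5 lower in GL. Of the 50 members 35 were at or under background on at least 1 array. Where a whole side of a comparison was, the difference is a bound at best.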
